A study of Mus musculus with 4 samples.

Results

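Messenger RNA of 42 genes for nuclear receptors and their coregulators was examined in small intestine of mice lacking the Cyp3a cluster (Cyp3a-/-, called KO below) and of wild-type mice (control). The genes were chosen by name and comprise 35 receptors and 7 coregulators, of 21153 genes with a named probe on the array. Each genotype had 2 arrays, KO 1 and KO 2 against control 1 and control 2, and the series' design text says that the 2 experiments used different animals. Strain, age, sex, diet, segment of the intestine and the number of animals behind an array are not given in the sources used here. All 42 genes had a probe, and 38 of them entered the test of genotype because 2 or more of the 4 arrays read their probe well above background. That test covered 14396 genes.

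Nuclear receptors are transcription factors that bind DNA through a zinc-finger domain and in many cases change shape when a small lipophilic ligand enters their ligand-binding domain. Many of them, among them the xenobiotic, fatty acid, oxysterol, retinoid and thyroid hormone receptors, act as a dimer with a retinoid X receptor (RXR). Without ligand several of these receptors hold corepressors such as NCoR, and with ligand they exchange them for coactivators of the Ncoa family. In the intestine they link absorbed bile acids, fatty acids, vitamins and foreign compounds to genes for metabolism and transport, and the Cyp3a genes are textbook targets of the pregnane X receptor (PXR).

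A level is the log2 of the signal after dividing by its array's own 75th percentile. A difference is the KO mean minus the control mean, with a standard error (SE) taken from limma. Probes differ in how strongly they bind, so levels are compared between arrays and never between genes. The 75th percentile was 322 and 175 in KO 1 and KO 2 and 226 and 356 in control 1 and control 2, no spot was saturated, and the number of arrays limits the precision. KO 1 and control 2 shared a slide and its scan, while KO 2 and control 1 each lay on a slide of their own. KO 1 stood apart: across genes it correlated at 0.948 with KO 2 and at 0.966 and 0.962 with control 1 and control 2. KO 2 correlated at 0.981 and 0.980 with control 1 and control 2, and the controls at 0.979 with each other. Each KO array was thus closer to both controls than to the other KO array. The labels fitted the deleted genes. Cyp3a11, the main target of PXR in this cluster, had levels of -5.77 and -4.52 in KO 1 and KO 2, both not well above background, against 5.05 and 5.78 in control 1 and control 2, and was at least 920-fold lower in KO (limma's adjusted p = 0.00235). For that bound each KO array was given its lowest signal well above background, or the Cyp3a11 signal where this was larger. The tissue label fitted too: all 18 markers of absorptive enterocytes were well above background on all 4 arrays, as were all 12 of smooth muscle.

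No receptor or coregulator passed the test of genotype. Of 38 tested genes, 0 were higher and 0 lower at limma's adjusted p under 0.05, against a background of 0% higher and 0.0417% lower over all 14396 genes, and 0 had an unadjusted p under 0.05 (background 0.167% higher and 0.278% lower). The smallest unadjusted p was 0.134, and every adjusted p was 1.00 after rounding. Differences ranged from -0.64 to 0.61 with a median of 0.06, beside a median of 0.04 over all tested genes. Their SE lay between 0.27 and 0.51, and 0 of the 38 intervals at 95% confidence excluded 0. Both KO arrays lay above both control arrays for 2 genes (background 8.68%) and below them for 1 gene (background 6.1%). These shares are below the background and are no result about the genes. Of 15 alternative settings, at least 1 turned the sign for 34 of the 38 genes, and 4 genes, Nr1i2, Ppara, Nr2c1 and Nr2c2, kept theirs in all of them. Some of these settings alter only the error estimate and cannot turn a sign. The difference of Nr1i2 was only 0.02 without KO 1. A p that misses the threshold with 2 arrays per genotype does not show that the levels were equal.

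**Figure D1:**
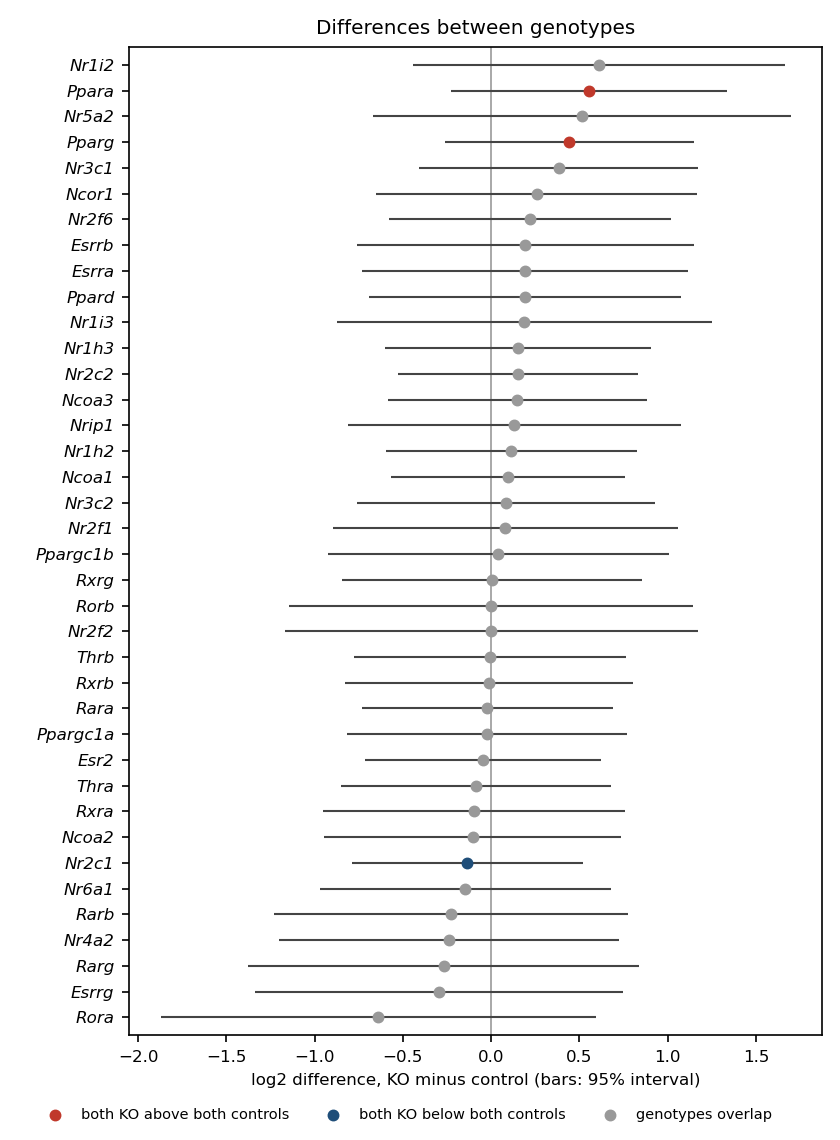
Difference between genotypes for the 38 tested receptors and coregulators, in log2 units (KO minus control), with bars for limma's 95% interval, n = 2 arrays per genotype. The points run from -0.64 for Rora to 0.61 for Nr1i2 and every bar crosses 0. Red marks the 2 genes with both KO arrays above both controls and blue the 1 gene with both below.

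The receptors that sense foreign compounds are described first, because the deleted genes are among their targets. Nr1i2 encodes PXR, which drugs and bile acids activate, and had levels of 1.93 in KO 1 and 0.75 in KO 2, against 0.89 in control 1 and 0.57 in control 2. KO 1 lay above the other 3 arrays, and KO 2 lay between the controls. The mean was 1.34 ± 0.84 in KO and 0.73 ± 0.22 in control (SD, n = 2 each), a difference of 0.61 (SE 0.43, limma's 95% interval -0.44 to 1.66, adjusted p = 1.00). Relative to the control mean, Nr1i2 stood at 1.20 in KO 1 and 0.02 in KO 2, so the difference rested on KO 1. Within the shared slide, KO 1 exceeded control 2 by 1.36. Nr1i3 encodes the constitutive androstane receptor (CAR), which shares many target genes with PXR. It had levels of 2.09 and 1.12 in KO 1 and KO 2, against 1.80 and 1.03 in control 1 and control 2, and the arrays paired across genotypes rather than within them. Its difference was 0.19 (SE 0.44, interval -0.87 to 1.25), and a second Nr1i3 probe gave 0.00.

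The RefSeq windows of 250 bases before the start of these 2 genes are shown because they hold the control region next to the start of the receptors whose targets were deleted. They are read 5′ to 3′ from assembly GRCm38.p6, Nr1i2 at chr16:38294825-38295074 on the minus strand and Nr1i3 at chr1:171213720-171213969 on the plus strand. The letters AGGTCA, the core motif to which many nuclear receptors bind, or their complement TGACCT, would stand in capitals. Neither window holds them, which says only that these letters are absent from this window.
Nr1i2: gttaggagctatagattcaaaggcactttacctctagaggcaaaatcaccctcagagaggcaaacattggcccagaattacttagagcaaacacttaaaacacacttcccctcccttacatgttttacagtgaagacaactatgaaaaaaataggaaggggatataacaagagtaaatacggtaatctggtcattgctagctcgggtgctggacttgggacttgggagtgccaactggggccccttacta
Nr1i3: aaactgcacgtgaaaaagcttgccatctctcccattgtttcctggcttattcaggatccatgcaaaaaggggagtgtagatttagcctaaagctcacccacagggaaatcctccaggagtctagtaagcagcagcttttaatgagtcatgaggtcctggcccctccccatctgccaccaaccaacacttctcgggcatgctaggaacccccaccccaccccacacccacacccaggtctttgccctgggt

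Genes known to be induced through PXR and CAR, with the Cyp3a genes left out, were set beside the receptors. Of 23 listed genes 21 were tested. In limma's fit 0 passed the adjusted threshold and 2 had an unadjusted p under 0.05 (background 0.167% higher and 0.278% lower). Their median relative to the control mean was 1.62 in KO 1 and -0.09 in KO 2, and KO 1 exceeded control 2 by a median of 1.80 on the shared slide. KO 1 thus stood high for the receptor Nr1i2 and for the median of the targets, while KO 2 was near the control mean for both. Markers of enterocytes were also high on KO 1, with a median of 0.93 in KO 1 and -0.35 in KO 2, and their part in these levels was not tested. The median difference of the list was 0.70, and 20 of 21 differences were above 0, where 56.2% of all tested genes were above 0. Differences were also above 0 for 18 of 18 enterocyte markers and for 21 of 23 tested targets of the fatty acid receptors. The lean towards KO was therefore not particular to this list. Both KO arrays lay above both controls in 6 of the 21 (background 8.68%). This list and the further target lists below were chosen with earlier results of these data known. Their counts beside the background are descriptions and not tests. The 3 genes of smallest p in the list were Ces2a, an intestinal carboxylesterase, and the glutathione transferase genes Gstm2 and Gstm1. Ces2a had levels of 8.61 and 7.39 in KO 1 and KO 2, against 6.22 and 6.22 in control 1 and control 2, a difference of 1.78 (limma's adjusted p = 1.00), so that KO 2 was above the controls here. Gstm2 had levels of 4.73 and 4.79 in KO 1 and KO 2, against 4.02 and 4.13 in control 1 and control 2, a difference of 0.69 (limma's adjusted p = 1.00).

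**Figure D2:**
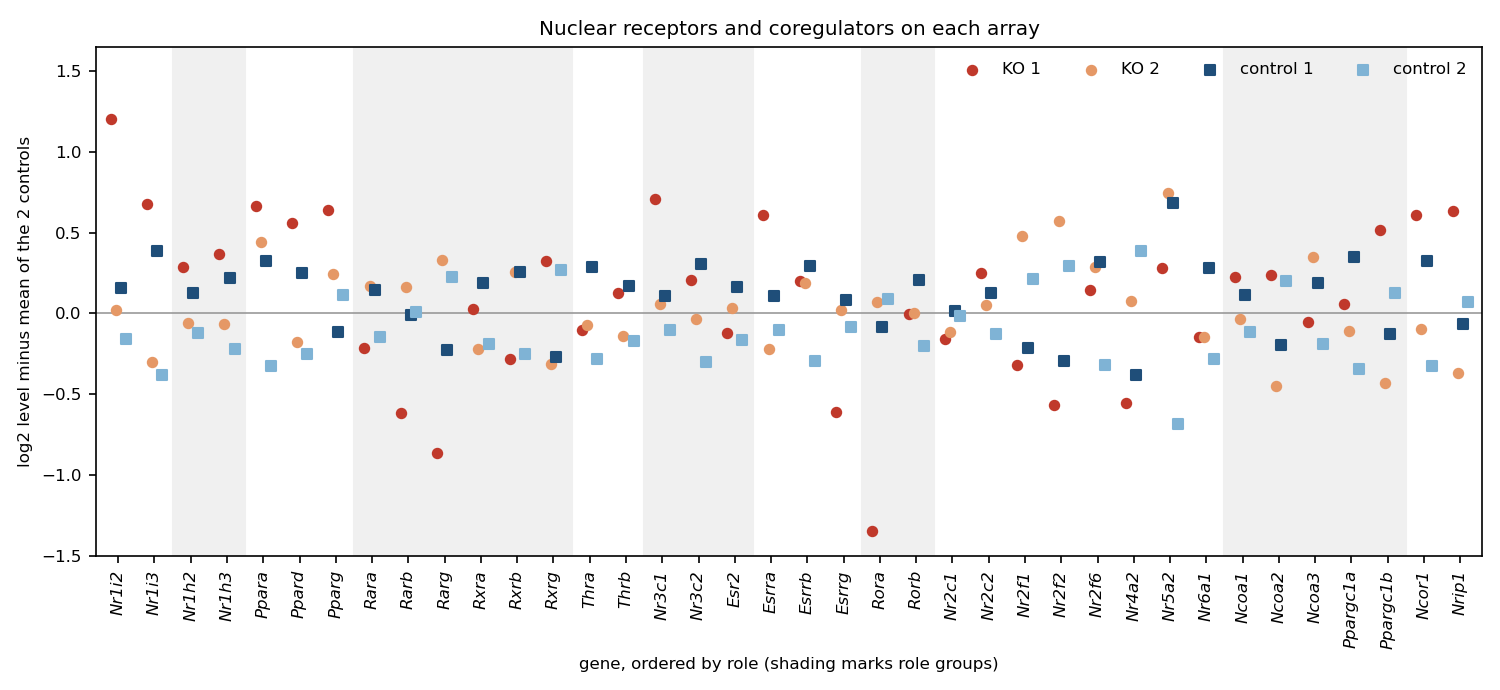
Level of each of the 38 tested genes on each array, minus the mean of the 2 controls, in log2 units. Circles are KO 1 and KO 2, squares are control 1 and control 2, and shading separates groups of like role. KO 1 runs from -1.35 for Rora to 1.20 for Nr1i2, and control 2 is the lowest array for 21 genes.

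The fatty acid receptors held both genes whose KO arrays lay above both controls. Ppara encodes PPARα, which turns on fatty acid oxidation, and had levels of 2.21 and 1.98 in KO 1 and KO 2, against 1.86 and 1.21 in control 1 and control 2. The mean was 2.09 ± 0.16 in KO and 1.54 ± 0.46 in control (SD, n = 2 each), and the gap between KO 2 and control 1 was small beside the spread of the controls. The difference was 0.55 (SE 0.32, limma's 95% interval -0.23 to 1.34, unadjusted p = 0.134, adjusted p = 1.00). Both other Ppara probes also gave positive differences, 0.39 and 0.36. On the second of them KO 1, at 1.52, lay below control 1, at 1.82, so the genotypes overlapped there.

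Pparg encodes PPARγ, a receptor known from fat cells and from colon epithelium. It had levels of 3.24 and 2.84 in KO 1 and KO 2, against 2.49 and 2.72 in control 1 and control 2. The KO mean was 3.04 ± 0.28 and the control mean 2.60 ± 0.16 (SD, n = 2 each), a difference of 0.44 (SE 0.29, interval -0.26 to 1.15, adjusted p = 1.00), which turned to -0.13 after normexp background correction. Of 7 fat cell markers 5 were tested, 3 were well above background on all 4 arrays, and their summed signal was 17.2 and 10.7 in KO 1 and KO 2, against 12.5 and 14.9 in control 1 and control 2, in multiples of the 75th percentile. Most of this sum was Cidec, a lipid droplet gene, with levels of 3.95 and 2.47 in KO 1 and KO 2, against 3.26 and 3.60 in control 1 and control 2. The median of the 5 markers relative to the control mean went the other way, with -0.66 in KO 1 and 1.60 in KO 2, and their part in the Pparg levels was not tested. Adipoq, the adiponectin gene, was well above background on 2 arrays, with levels of -6.47 and -2.24 in KO 1 and KO 2, against -4.80 and -3.83 in control 1 and control 2. The third of these receptors, Ppard, had levels of 3.43 and 2.70 in KO 1 and KO 2, against 3.13 and 2.62 in control 1 and control 2, so each genotype held a high and a low array. Its difference was 0.19 (SE 0.36, interval -0.69 to 1.07).

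The promoter windows of Ppara and Pparg are given since these were the 2 genes with both KO arrays above both controls. The Ppara window lies at chr15:85735526-85735775 and the Pparg windows at chr6:115360894-115361143 and chr6:115362099-115362348, all on the plus strand of GRCm38.p6. Capitals mark AGGTCA, which occurs once in each of these Pparg windows and not in that of Ppara. A further Pparg start, not printed, has none.
Ppara: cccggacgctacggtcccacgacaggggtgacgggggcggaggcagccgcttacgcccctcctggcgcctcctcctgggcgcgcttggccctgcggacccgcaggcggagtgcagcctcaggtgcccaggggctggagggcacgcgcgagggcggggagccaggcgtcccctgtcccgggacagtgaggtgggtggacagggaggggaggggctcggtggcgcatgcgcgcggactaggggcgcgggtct
Pparg, first start: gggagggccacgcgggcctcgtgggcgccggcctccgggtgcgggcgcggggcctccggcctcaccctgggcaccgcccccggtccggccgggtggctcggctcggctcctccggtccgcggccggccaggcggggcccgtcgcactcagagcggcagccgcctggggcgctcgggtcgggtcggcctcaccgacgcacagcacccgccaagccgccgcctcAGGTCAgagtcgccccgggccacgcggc
Pparg, second start: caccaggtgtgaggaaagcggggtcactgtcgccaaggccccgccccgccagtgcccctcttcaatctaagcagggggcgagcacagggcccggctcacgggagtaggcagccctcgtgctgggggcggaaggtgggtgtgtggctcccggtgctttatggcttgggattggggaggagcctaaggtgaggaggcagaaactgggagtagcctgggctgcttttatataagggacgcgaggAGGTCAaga
RefSeq windows were found for 37 of the 42 genes, 59 windows in all. AGGTCA or TGACCT occurred in 9 of these 59 windows, or 15.3%, against 14.02% of all 32851 windows of this length. Among the 14546 windows of tested genes the share was 11.9%.

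Targets of PPARs differed between the KO arrays as the PXR and CAR targets did. Of 24 listed genes 23 were tested, and 0 passed the adjusted threshold or had an unadjusted p under 0.05 in limma's fit. Their median relative to the control mean was 0.67 in KO 1 and -0.31 in KO 2, while Ppara itself stood at 0.67 and 0.44. Receptor and targets were therefore both high in KO 1, and in KO 2 the targets lay below the controls while Ppara lay above them. The enterocyte markers differed between the arrays in the same way, and their part in the levels of the PPAR targets was not tested. Acot1, an acyl-CoA thioesterase gene, was the 1 target of the 23 with both KO arrays above both controls (background 8.68%). It had levels of 1.89 and 1.61 in KO 1 and KO 2, against 1.28 and 1.48 in control 1 and control 2, a difference of 0.37 (limma's adjusted p = 1.00). The fatty acid transporter gene Cd36 and the acyl-CoA dehydrogenase gene Acadl had differences of 0.64 (SE 0.67) and 0.47 (SE 0.50), with overlapping genotypes.

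The oxysterol receptors LXRβ (Nr1h2) and LXRα (Nr1h3), which control cholesterol export, overlapped between genotypes. Nr1h2 had levels of 3.74 and 3.39 in KO 1 and KO 2, against 3.58 and 3.33 in control 1 and control 2. Nr1h3 had levels of 2.89 and 2.46 in KO 1 and KO 2, against 2.74 and 2.31 in control 1 and control 2. Both genes showed the same order of arrays, KO 1, control 1, KO 2 and control 2 from high to low, and differences of 0.11 (SE 0.29) and 0.15 (SE 0.31). Their 15 listed targets were all tested, and 0 passed or had an unadjusted p under 0.05 in limma's fit. Of the targets, 3 lay below both controls in both KO arrays (background 6.1%) and 1 above them (background 8.68%). Mylip, which encodes the ligase that removes the LDL receptor, had levels of -2.72 and -1.55 in KO 1 and KO 2, against -1.45 and -1.01 in control 1 and control 2. The cholesterol pump genes Abcg1 and Abca1 differed in opposite directions, by -0.60 and 0.71.

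The retinoid receptors fell into genes that were lowest on KO 1 and genes that were not. Rarg, the retinoic acid receptor γ gene, had levels of -1.28 and -0.08 in KO 1 and KO 2, against -0.63 and -0.18 in control 1 and control 2. Its difference of -0.27 (SE 0.45, limma's adjusted p = 1.00) was made by KO 1, at -0.87 relative to the control mean, while KO 2 stood at 0.33. Rarb had levels of -3.23 and -2.44 in KO 1 and KO 2, against -2.62 and -2.60 in control 1 and control 2. KO 1 was again lowest. Rara and the RXR gene Rxrb were likewise lowest on KO 1 and highest on KO 2, with differences of -0.02 and -0.01. Rxra had levels of -2.29 and -2.53 in KO 1 and KO 2, against -2.13 and -2.50 in control 1 and control 2, without separation of genotypes. Rxrg gave a difference of 0.01 on the probe used and 0.59 on a second probe, which was well above background on 2 arrays.

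Genes that respond to retinoic acid gave no called change either. Of 11 listed genes 8 were tested, with 0 past the adjusted threshold and 0 with an unadjusted p under 0.05 in limma's fit. Cyp26b1, the enzyme that degrades retinoic acid, had levels of -2.21 and -0.59 in KO 1 and KO 2, against 0.32 and -0.68 in control 1 and control 2. KO 1 was far below the rest and KO 2 lay between the controls. The list's median relative to the control mean was -0.08 in KO 1 and -0.13 in KO 2.

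Steroid and thyroid hormone receptors differed in whether they were detected at all. Esr1, the estrogen receptor α gene, and Pgr, the progesterone receptor gene, had no probe well above background on any of the 4 arrays, and no difference is given for them. Esr2, the estrogen receptor β gene, was well above background on all 4 arrays, with levels of 2.25 and 2.41 in KO 1 and KO 2, against 2.54 and 2.21 in control 1 and control 2. The control arrays enclosed both KO arrays. Nr3c1, the glucocorticoid receptor gene, had levels of 3.55 and 2.90 in KO 1 and KO 2, against 2.95 and 2.74 in control 1 and control 2. KO 1 was highest and KO 2 lay between the controls, for a difference of 0.38 (SE 0.33, limma's 95% interval -0.41 to 1.17, adjusted p = 1.00), which turned to -0.20 after normexp. A second Nr3c1 probe gave 0.23. Nr3c2, the mineralocorticoid receptor gene, had a difference of 0.09 (SE 0.35).

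Among 10 tested targets of the glucocorticoid receptor 0 passed limma's adjusted threshold, 1 had an unadjusted p under 0.05 and a positive difference (background 0.167%), and 3 lay above both controls on both KO arrays (background 8.68%). Cebpd, a transcription factor gene, had levels of 2.83 and 2.08 in KO 1 and KO 2, against 1.25 and 1.60 in control 1 and control 2, a difference of 1.03 (limma's adjusted p = 1.00). The clock gene Per1 had levels of 0.62 and 1.64 in KO 1 and KO 2, against 0.48 and 0.21 in control 1 and control 2, a difference of 0.78. Tsc22d3, which encodes the glucocorticoid-induced leucine zipper, had levels of 2.57 and 2.85 in KO 1 and KO 2, against 2.36 and 2.21 in control 1 and control 2. These 3 genes were the ones of smallest p in the list, and the median of the list was 0.26 in KO 1 and 0.10 in KO 2 relative to the control mean.

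The thyroid hormone receptor genes showed little difference. Thra had levels of 3.80 and 3.84 in KO 1 and KO 2, against 4.19 and 3.62 in control 1 and control 2. The KO arrays were almost alike at 3.82 ± 0.02 and lay inside the control range of 3.91 ± 0.40 (SD, n = 2 each). Thrb had a difference of -0.01 (SE 0.32, limma's 95% interval -0.78 to 0.76). Of 6 tested genes of the thyroid hormone response, 0 passed or had an unadjusted p under 0.05 in limma's fit. Those of smallest p were Thrsp, Me1, the malic enzyme gene, and Hr, with differences of -0.73 (SE 0.65), 0.36 (SE 0.39) and -0.21 (SE 0.41).

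The estrogen-related receptors bind DNA without a known natural hormone and drive mitochondrial genes with the PGC-1 coactivators. Esrra had levels of 5.59 and 4.76 in KO 1 and KO 2, against 5.09 and 4.88 in control 1 and control 2, so KO 1 was the highest array and KO 2 the lowest. Its difference was 0.19 (SE 0.38, limma's 95% interval -0.73 to 1.12). Ppargc1b, the PGC-1β gene, showed the same extremes, with levels of -0.53 and -1.47 in KO 1 and KO 2, against -1.17 and -0.91 in control 1 and control 2. Ppargc1a, the PGC-1α gene, did not, with 2.08 and 1.91 in KO 1 and KO 2, against 2.37 and 1.67 in control 1 and control 2. The 15 targets of these factors gave 0 genes past the adjusted threshold and 0 with an unadjusted p under 0.05 in limma's fit. The median of the targets relative to the control mean was 0.36 in KO 1 and -0.06 in KO 2, and Cycs, the cytochrome c gene, had levels of 6.27 and 4.92 in KO 1 and KO 2, against 5.20 and 5.14 in control 1 and control 2. The mitochondrial genes Tfb1m and Sod2 had differences of -0.34 (SE 0.32) and 0.28 (SE 0.33). Esrrg and Esrrb had differences of -0.30 (SE 0.43) and 0.19 (SE 0.39), and a second Esrrg probe gave 0.03.

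Rora held the lowest difference of the set. It encodes RORα, a receptor of the circadian clock and of innate lymphoid cells, and had levels of -2.77 and -1.36 in KO 1 and KO 2, against -1.51 and -1.34 in control 1 and control 2. A single array carried the difference of -0.64 (SE 0.51, limma's 95% interval -1.87 to 0.59, adjusted p = 1.00): KO 1 stood at -1.35 relative to the control mean and KO 2 at 0.07. The value without KO 1 was therefore 0.07, and within the shared slide it was -1.43. After normexp background correction it was 0.06. Rorb was well above background on 1 KO array and 1 control array and had a difference of 0.00 (SE 0.47).

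Of 10 orphan receptors 8 were tested. Nr2f1 and Nr2f2 encode COUP-TF I and II, known from stromal, neural and endothelial cells, and were lowest on KO 1 and highest on KO 2. Nr2f2 had levels of -2.52 and -1.38 in KO 1 and KO 2, against -2.25 and -1.66 in control 1 and control 2. The 2 KO arrays enclosed both controls, and the mean difference was 0.00 (SE 0.48) with -0.57 in KO 1 and 0.57 in KO 2. Nr2f1 had levels of -2.22 and -1.42 in KO 1 and KO 2, against -2.11 and -1.69 in control 1 and control 2, in the same order. Nr2f6, a further COUP-TF relative, had a difference of 0.22 (SE 0.33).

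Nr5a2 encodes LRH-1, which drives crypt renewal and local steroid synthesis in the gut. It had levels of 0.79 and 1.26 in KO 1 and KO 2, against 1.20 and -0.17 in control 1 and control 2. Control 2 was the outlying value, and the difference of 0.51 (SE 0.49, limma's 95% interval -0.67 to 1.70, adjusted p = 1.00) became -0.17 without it. Nr2c1, the TR2 gene, had levels of -0.43 and -0.38 in KO 1 and KO 2, against -0.25 and -0.28 in control 1 and control 2. This was the 1 gene with both KO arrays below both controls, by a difference of -0.14 (SE 0.27), and on a second Nr2c1 probe the sign was opposite at 0.04. Its relative Nr2c2, the TR4 gene, had a difference of 0.15 (SE 0.28), but a second Nr2c2 probe had the opposite sign at -0.05. Nr6a1 had a difference of -0.15 (SE 0.34). Nr4a2, an immediate-early receptor without a ligand, had levels of -1.17 and -0.54 in KO 1 and KO 2, against -0.999 and -0.232 in control 1 and control 2. Its spread within each genotype exceeded its difference of -0.24 (SE 0.40). For Nr4a3 and Nr0b1 no array was well above background.

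The coregulators gave 5 positive and 2 negative differences, none past the threshold. Ncor1, the corepressor NCoR, had levels of 1.55 and 0.84 in KO 1 and KO 2, against 1.26 and 0.61 in control 1 and control 2, and all 3 Ncor1 probes had KO 1 highest. Nrip1, the corepressor RIP140, had levels of 1.09 and 0.08 in KO 1 and KO 2, against 0.39 and 0.52 in control 1 and control 2, so its extremes were both KO arrays. The coactivator genes Ncoa1, Ncoa2 and Ncoa3 had differences of 0.09, -0.11 and 0.15, with SE of 0.27, 0.35 and 0.30. Of 22 other coregulators on a further list all were tested. In limma's fit 0 passed the adjusted threshold and 1 had an unadjusted p under 0.05 (background 0.167% higher and 0.278% lower). Trim24 and Ep300, a histone acetyltransferase gene, had differences of -0.45 (SE 0.36) and 0.25 (SE 0.30). Among 11 tested receptors outside the set 0 passed in limma's fit. The clock repressor gene Nr1d1 was the 1 with an unadjusted p under 0.05 (background 0.278% lower). Nr1d1 had levels of -0.77 and -1.08 in KO 1 and KO 2, against 0.03 and -0.36 in control 1 and control 2 (difference -0.76, limma's adjusted p = 1.00). Nr2e3 and Hnf4g had differences of 0.53 (SE 0.37) and 0.69 (SE 0.59).

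The KO arrays were about as far from each other for these genes as for all genes. Relative to the control mean, KO 1 and KO 2 stood on the same side for 11 of the 38 genes, or 28.9%, where 38.2% of all tested genes did. For 8 of these both were above and for 3 both were below. The median distance between the KO arrays was 0.45 and that between the controls 0.40, beside 0.45 and 0.30 over all tested genes. KO 1 exceeded KO 2 for 22 of the 38 genes (background 47.5%). KO 1 was more than 1 log2 unit from KO 2 for 5 genes, or 13.2% (background 19.5%).

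**Figure D3:**
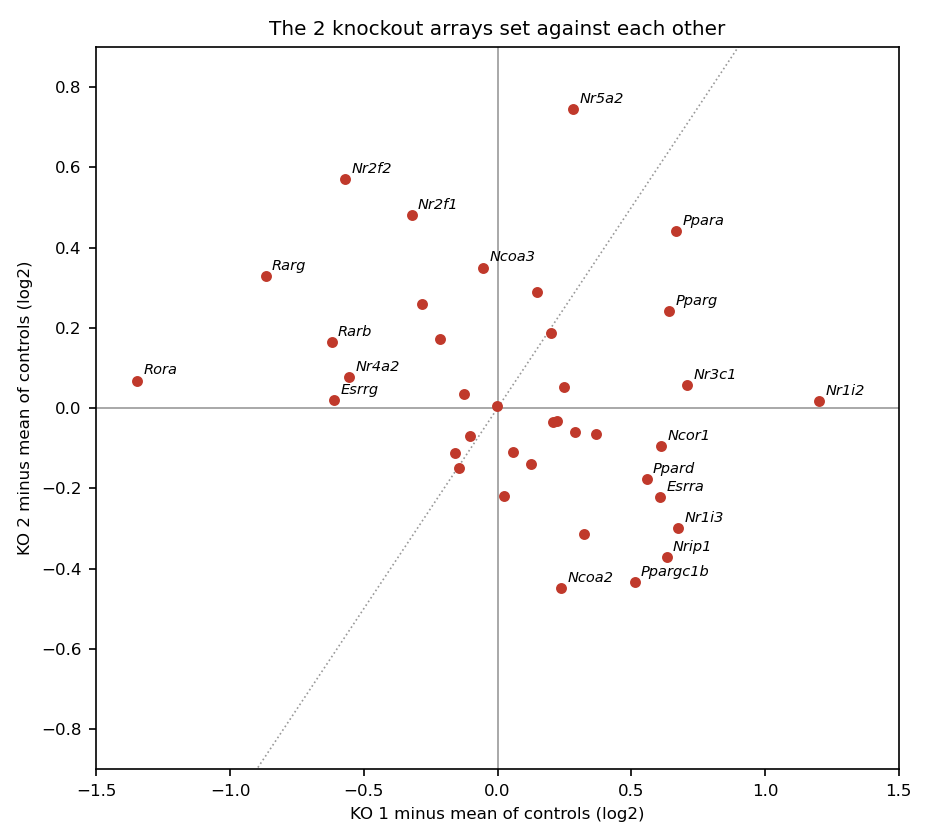
KO 1 (horizontal) against KO 2 (vertical), each minus the mean of the 2 controls in log2 units, for the 38 tested genes, with genes far from 0 named. The dotted line marks equal values. The points spread along the horizontal axis, from Rora at -1.35 to Nr1i2 at 1.20, and 11 of 38 lie where both arrays have the same sign.

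KO 1 was the highest of the 4 arrays for 16 genes, or 42.1% (background 34.2%). These were Nr1i2, Nr1i3, both LXR genes, all 3 PPAR genes, Rxrg, Nr3c1, Esrra, Nr2c2, Ncoa1, Ncoa2, Ppargc1b, Ncor1 and Nrip1. KO 1 was lowest for 10 genes, or 26.3% (background 32.6%), namely Rara, Rarb, Rarg, Rxrb, Esrrg, Rora, Nr2c1, Nr2f1, Nr2f2 and Nr4a2. KO 2 was highest for 8 genes, or 21.1% (background 28.7%), among them 4 retinoid receptor genes and both COUP-TF genes, and lowest for 6 genes, or 15.8% (background 22.3%). Control 1 was highest for 12 genes, or 31.6% (background 19.3%). Markers of cell types also differed between the arrays. The 18 enterocyte markers had a median of 0.93 in KO 1 and -0.35 in KO 2 relative to the control mean, with a summed signal of 1949 and 1025 in KO 1 and KO 2, against 1422 and 992 in control 1 and control 2, in multiples of the 75th percentile. The 12 smooth muscle markers had a median of -0.91 in KO 1 and 0.59 in KO 2, with a summed signal of 113 and 335 in KO 1 and KO 2, against 196 and 224 in control 1 and control 2. The 12 markers of enteric neurons and glia had a median of -0.77 in KO 1 and -0.16 in KO 2, and the 9 fibroblast markers -0.56 and 0.30. No defining marker of these 4 lists was below the detection rule. Fewer cells of a type and less RNA per cell cannot be told apart in bulk tissue, and the part of these markers in the receptor levels was not tested.

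**Figure D4:**
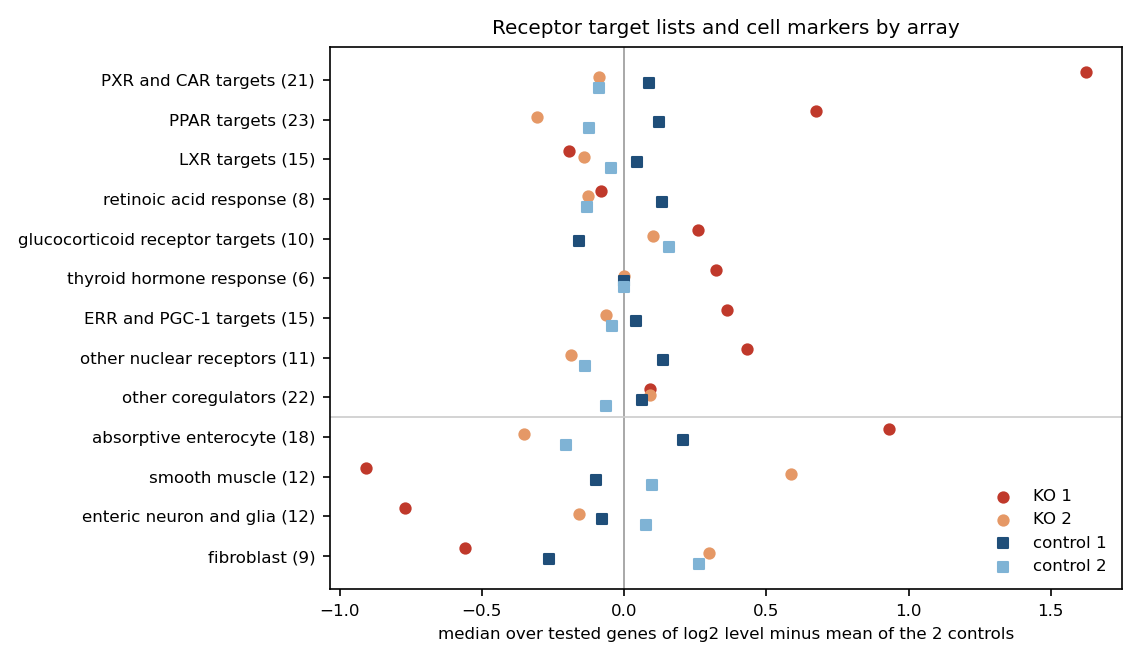
Median over the tested genes of each list (number in brackets) of the log2 level minus the mean of the 2 controls, for each array. Circles are KO 1 and KO 2, squares are the controls, and the line separates receptor target lists and related factors from cell markers. KO 1 stands at 1.62 for PXR and CAR targets, 0.93 for enterocyte markers and -0.91 for smooth muscle markers.

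The control arrays differed from each other for these genes as well. Control 2 was the lowest array for 21 of the 38 genes, or 55.3%, where it was lowest for 29.4% of all tested genes. Control 1 exceeded control 2 for 27 genes, or 71.1% (background 53.9%), by a median of 0.31, beside 0.04 over all tested genes. This lean also grew with signal across all genes: among 3187 genes with a mean level of at least 2, control 2 was lowest for 47.6%, and for 9 of the 13 receptors and coregulators there. At mean levels from 0 to 2 the values were 32.7% of all genes and 7 of 10. Below a level of -2 they were 17.4% and 2 of 5, and from -2 to 0 they were 23.3% and 3 of 10. Control 2 was also the brightest array before scaling. Cell markers differed between the controls too. Relative to the control mean, enterocyte markers had a median of 0.21 in control 1 and -0.21 in control 2, and secretory cell markers 0.35 and -0.35. The 6 tested hepatocyte markers, 3 of them well above background on all 4 arrays, had 2.06 and -2.06. Smooth muscle markers (-0.10 and 0.10) and fibroblast markers (-0.26 and 0.26) were among those going the other way. The part of brightness and of these markers in this lean was not tested.

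**Figure D5:**
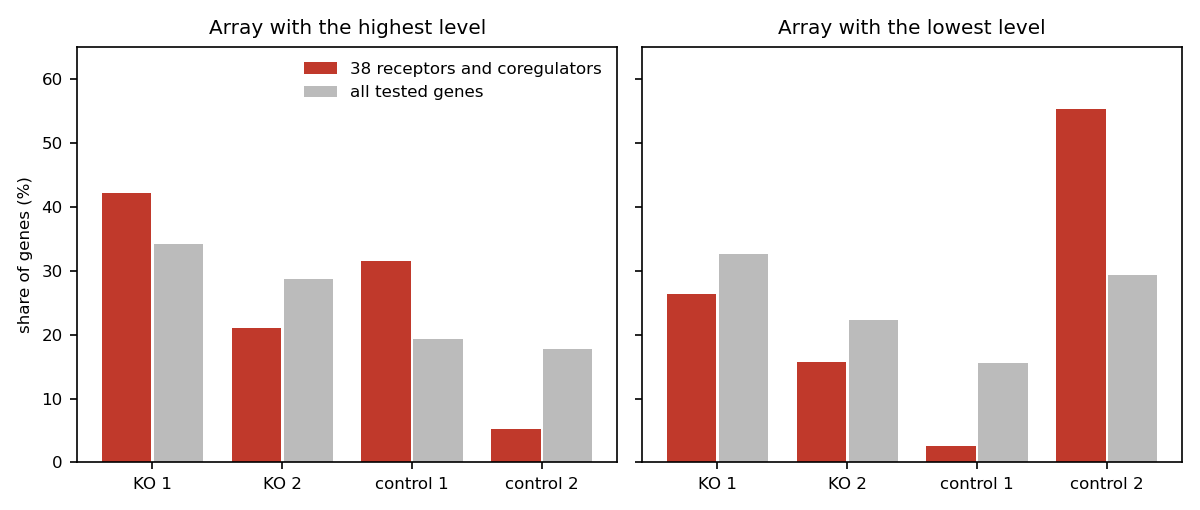
Share of genes (%) for which each array had the highest level (left) or the lowest (right) of the 4 arrays, for the 38 tested receptors and coregulators (red) and all 14396 tested genes (grey). Control 2 is lowest for 55.3% of the 38 genes, against 29.4% of all genes, and KO 1 is highest for 42.1%, against 34.2%.

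Comparing within the slide that held both genotypes therefore set KO 1 against the control with the lower values. There KO 1 exceeded control 2 for 28 genes, or 73.7% (background 56.3%), with a median of 0.32, beside 0.08 over all tested genes. KO 1 exceeded control 1, on another slide, for 16 genes, or 42.1% (background 47.1%). Which control was used decided whether most of these genes appeared higher or lower on KO 1. Of 19 genes with at least 2 probes well above background on 2 or more arrays, 12 had the same sign of difference on all of those probes.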

How the data were processed

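Total RNA of small intestine was labelled with Cy3 and hybridised to 1-colour Agilent arrays, per the labels' protocols. The authors read them with Agilent Feature Extraction 11.5.1.1, per the submitters' processing notes. The deposited scanner files give intensity per spot, background-subtracted by that software. Spots of a probe were averaged after dropping control and outlier spots, and log2 intensities were set relative to the array's 75th percentile. The deposited series table holds log2 values that matched these within 0.01 for all 39408 probes compared, each probe centred on a value shared by the arrays. Its columns had medians of -0.108 and 0.124 in KO 1 and KO 2 and 0.053 and -0.095 in control 1 and control 2. Array accessions were named through RefSeq (GRCm38.p6 table, used for names and promoter windows): 28025 of 39429 probes had 1 symbol and 11404 none. Each gene was represented by its brightest probe among those well above background on at least 2 of 4 arrays, which left 14396 genes, 6 of them without a value on some array and none of those a receptor or coregulator described here. limma 3.58.1 in R 4.3.3 (lmFit, eBayes with a trend) compared both groups without covariates, with Benjamini-Hochberg adjustment at 0.05. The fit was also run on simulated data with independent noise. Those data held no shift by slide or cell type, so that run does not cover such shifts. The design text speaks of different animals for the experiments but not of how many lie behind an array, so p-values measure the spread between these arrays. From each further list the 3 genes of smallest p were named, and all receptors and coregulators were described. Some genes of the retinoic acid and other coregulator lists are not reported here. The genes and lists were chosen with earlier results of these data known. Alternatives were normexp background correction (offset 50), median and quantile scaling, the mean of probes, a filter on all 4 arrays, no filter, the authors' log2 values, robust eBayes, no intensity trend, each array left out, the replicate number as a block, and the shared slide alone. Normexp used the median spot signal, the one these files hold.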

Additional observations from a re-analysis of the deposited data

How the results depend on the processing

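No receptor or coregulator was called under any setting run, so the calls of the 38 genes were 0 throughout. Over all genes, 6 were called as reported and 13 after normexp background correction (3 higher, 10 lower). When a probe had to be well above background on all 4 arrays, 0 were called, with 41 at an unadjusted p under 0.05 in limma's fit. Cyp3a11 and Cyp3a25 were among the genes called as reported. Their probes were well above background on 0 KO arrays, so this filter leaves those probes out and cannot test their loss. Adding the replicate number as a replicate block gave 32 calls (6 higher, 26 lower), none of them among the 38 genes. Whether arrays of the same number share more than that label was not settled. The deviations of KO 1 and control 1 from their group means correlated at 0.05. With 2 arrays a group the other pair gives the same value, so this check cannot decide whether the arrays were paired. Leaving out 1 array, the lone array then being assumed to vary like the others, gave 0 to 431 calls over all genes: 12 without KO 1, 431 without KO 2 (134 higher, 297 lower), and 0 without control 1 or control 2, with 48 and 57 at an unadjusted p under 0.05. With 1 array against 2, genes without overlap between genotypes numbered 14 to 26 of the 38, against 3 as reported, because fewer arrays have to separate. The matching share over all tested genes was not computed, so these counts are no result about the 38 genes. The median difference of the 38 genes, 0.06 as reported, lay between -0.07 and 0.21 with 1 array left out and was 0.32 within the shared slide. After normexp it was -0.055, beside 0.083 over all genes, so its sign and its place relative to all genes turned. A fit with the slide as a term leaves no residual degrees of freedom, so values within the slide are given instead. After normexp the sign turned for Esrra (-0.48), Esrrg (0.78), Ncoa1 (-0.17), Ncoa3 (-0.46), Nr1h2 (-0.48), Nr1h3 (-0.42), Nr1i3 (-0.12), Nr2f6 (-0.43), Nr3c1 (-0.20), Nr6a1 (0.41), Ppard (-0.39), Pparg (-0.13), Rarb (0.59), Rora (0.062), Rxra (0.60), Rxrg (-0.055) and Thrb (0.49), and the cause was not tested. With median scaling it turned for Esr2 (0.014), Ppargc1a (0.033), Rara (0.037), Rxrb (0.047) and Thrb (0.052), with the mean of a gene's probes for Ppargc1a (0.10) and Rara (0.031), and with quantile normalization for Rxrg (-0.030) and Thrb (0.014). With 1 array left out it turned for 32 genes, with these ranges: Esr2 (-0.21 to 0.12), Esrra (-0.22 to 0.61), Esrrb (-0.10 to 0.49), Esrrg (-0.61 to 0.020), Ncoa1 (-0.033 to 0.22), Ncoa2 (-0.45 to 0.24), Ncoa3 (-0.054 to 0.35), Ncor1 (-0.096 to 0.61), Nr1h2 (-0.060 to 0.29), Nr1h3 (-0.066 to 0.37), Nr1i3 (-0.30 to 0.68), Nr2f1 (-0.32 to 0.48), Nr2f2 (-0.57 to 0.57), Nr2f6 (-0.10 to 0.54), Nr3c2 (-0.22 to 0.39), Nr4a2 (-0.62 to 0.14), Nr5a2 (-0.17 to 1.20), Nr6a1 (-0.43 to 0.14), Nrip1 (-0.37 to 0.63), Ppard (-0.18 to 0.56), Ppargc1a (-0.37 to 0.32), Ppargc1b (-0.43 to 0.51), Rara (-0.22 to 0.17), Rarb (-0.62 to 0.16), Rarg (-0.87 to 0.33), Rora (-1.35 to 0.068), Rorb (-0.20 to 0.21), Rxra (-0.28 to 0.089), Rxrb (-0.28 to 0.26), Rxrg (-0.31 to 0.32), Thra (-0.37 to 0.20), Thrb (-0.18 to 0.16). Signal over background limits the dim genes, of which Rorb was measured on 2 arrays and Esr1, Pgr, Nr4a3 and Nr0b1 on none.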
